A study of Mus musculus with 9 samples.

Results

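The genes described here are 43 genes of glucose handling, chosen by symbol from textbook pathways of glucose uptake, glycolysis, lactate export, the pentose phosphate pathway and glycogen turnover, with the transcription factor gene Hif1a added as a regulator of glycolysis. Of these, 39 were among the 7197 genes of the expression table, and Pfkm, Phka2, G6pc3 and Slc37a4 were not listed. All 39 passed the filter of a mean of at least 10 normalized counts. They were measured in neutrophils sorted from bone marrow as CD45+, CD11b+ and Ly6G+ cells from 5 Rragc+/+ and 4 RragcS74N/+ mice, which the labels call RagC S74N (+/+) and RagC S74N (KI/+). All mice were 2 months old, and the labels name no treatment. The RragcS74N/+ mice carry 1 copy of a CRISPR-edited Rragc gene in every cell of the body, next to 1 normal copy, so that cells of the marrow environment carry the edit as well. Rragc encodes RagC, a partner in the Rag GTPase dimers through which the growth kinase mTORC1 senses amino acids, and the edited protein signals more strongly than the normal one. The comparison therefore asks whether neutrophils of mice with raised nutrient signaling differ in the transcripts of glucose metabolism.

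Glycolysis splits glucose into pyruvate, and most of that pyruvate leaves a neutrophil as lactate, because mature neutrophils hold few mitochondria and draw most of their ATP from glycolysis. The pentose phosphate pathway takes glucose 6-phosphate aside to make NADPH, which the NADPH oxidase of neutrophils spends on superoxide. Glycogen, the branched store of glucose, lets neutrophils work in tissue where glucose is short. In many cell types mTORC1 raises transcription of glycolytic genes through the factor HIF-1α, encoded by Hif1a.

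The libraries counted the 3′ ends of transcripts, so that a count does not scale with transcript length. How fully the count of each gene captures its transcripts was not tested. Comparisons between genes are therefore of counts and not of transcript levels. Values are normalized counts, that is, reads of a gene divided by the size factor of its library. Recovered reads over the listed genes ran from 1214295 to 1973957 per library. All 9 neutrophil markers of the list used (Ly6g, Itgam, S100a8, S100a9, Csf3r, Mmp8, Mmp9, Cxcr2 and Retnlg) were listed, while 0 of 4 primary granule, 0 of 4 platelet and 0 of 6 T and NK cell markers were. Rragc itself measured 71.0 ± 10.3 (SD, n = 5, Rragc+/+) and 65.8 ± 9.52 (SD, n = 4, RragcS74N/+), and a count per gene cannot tell the edited from the normal copy. In libraries of whole sorted populations, fewer cells of a type and less RNA per cell cannot be told apart.

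No difference between genotypes passed the test in any of the 39 genes. Log2 changes, given throughout as RragcS74N/+ minus Rragc+/+ on the log2(normalized count + 1) scale, were tested with limma over 6673 genes, and 0 of the 39 had a Benjamini-Hochberg adjusted p below 0.05, against 0% of all genes tested. Their adjusted p-values ran from 0.713 to 0.993. At an unadjusted p below 0.05 there was 1 gene, Pgam1, or 2.56% of the 39, against 5.81% of all genes tested. Pgam1 was lower in RragcS74N/+, as were 3.81% of all genes at this p, with 2.01% higher. With edgeR on the recovered reads 4 of them had such a p, against 6.89% of all genes, and with DESeq2 4, against 6.7%, again with none below 0.05 after adjustment. Limma gave 2 with columns scaled to equal totals, against 5.26% of all genes, and 6 with array quality weights, against 11.5%. With one library left out it gave 0 without Rragc+/+ replicate 4, against 4.83%, 3 without Rragc+/+ replicate 1, against 9.64%, and 6 without Rragc+/+ replicate 5, against 13.7%, and the smallest adjusted p of any of the 39 in these fits was 0.326. For 0 of the 39 were the genotypes free of overlap, against 1.69% of all genes tested. By sign alone, 27 of the 39 were lower in RragcS74N/+ neutrophils, or 69.2%, against 46.6% of all genes, and their median log2 change was -0.13 against 0.02 over all genes. That median moved to -0.05 without Rragc+/+ replicate 2, a library in which many of these genes were high, with 26 of 39 lower against 47.2% of all genes. It moved to -0.21 without Rragc+/+ replicate 5, a library in which many of them were low, with 30 of 39 lower against 47.5% of all genes. For the genes described library by library the range over the 9 fits that each left out one library is given, with the libraries that set its ends where they moved the value most. Beside it stands an estimate with the trend of each library's values on the GC content of the last 500 nucleotides of transcripts taken out, because changes over all genes followed that content. The 95% interval of a gene's log2 change reached between 0.31 and 1.01 to either side of its estimate, with a median of 0.50, and for 32 of the 39 genes it lay between -1 and 1.

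**Figure D1:**
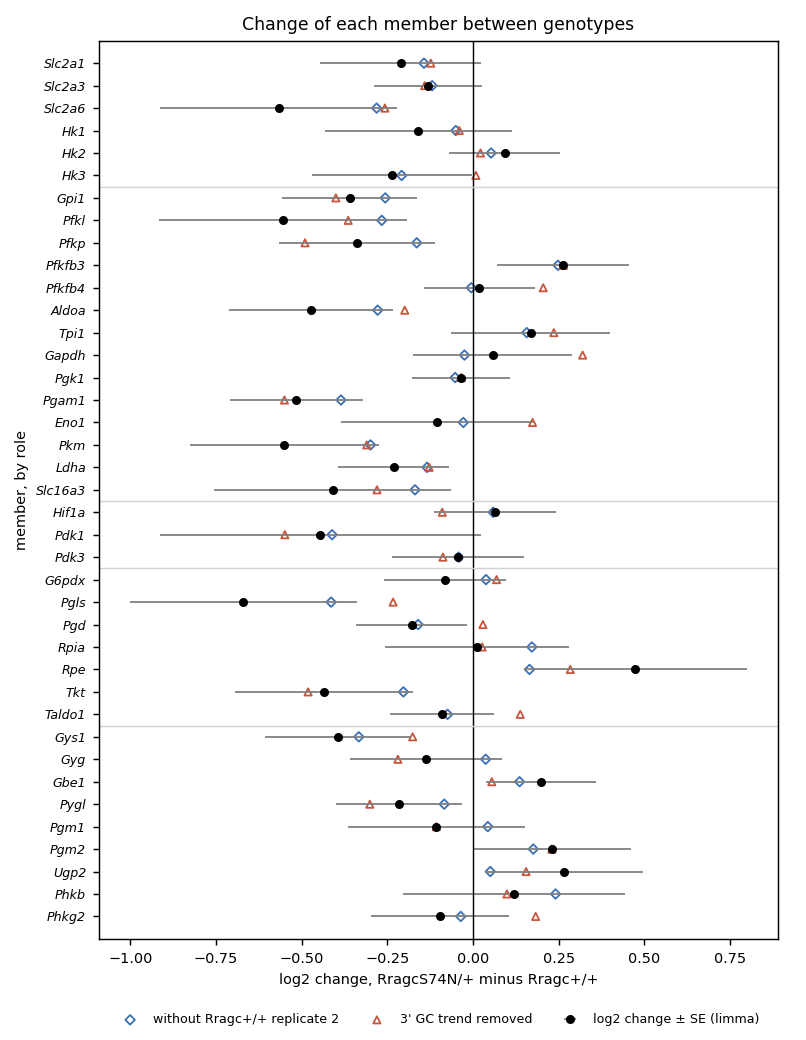
Log2 change of each of the 39 genes (horizontal axis, RragcS74N/+ minus Rragc+/+, 5 against 4 libraries), grouped by role from uptake at the top to glycogen at the bottom; black points with bars are the limma estimate ± SE, blue diamonds the estimate without Rragc+/+ replicate 2 and red triangles the estimate after the trend of each library with the GC content of transcript ends was taken out. The estimates run from -0.67 (Pgls) to 0.47 (Rpe), and the diamonds lie nearer to 0 than the black points for Pkm, Aldoa, Pgls and Tkt. The triangles of Pgm1 and Pgm2, which had no matched transcript, are uncorrected.

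Glucose enters the cell through transporters and is trapped as glucose 6-phosphate by hexokinases, and this group of 6 genes had 5 lower and 1 higher in RragcS74N/+ neutrophils, with a median log2 change of -0.19. Slc2a3, which encodes the high-affinity transporter GLUT3, measured 1006, 972.2, 952.3, 1001 and 773.0 normalized counts in Rragc+/+ replicates 1 to 5 and 976.0, 881.4, 884.2 and 700.2 in RragcS74N/+ replicates 1 to 4. The lowest library of each genotype stood below the rest, and the genotypes overlapped. Its log2 change was -0.13 (SE 0.16, adjusted p = 0.797), from -0.20 without Rragc+/+ replicate 5 to -0.04 without RragcS74N/+ replicate 4, and -0.14 with the GC trend removed. Slc2a1, the gene of the widely expressed transporter GLUT1, had lower counts, at 158.1, 141.4, 113.4, 98.1 and 88.2 in Rragc+/+ and 153.8, 102.7, 82.9 and 79.4 in RragcS74N/+ libraries. RragcS74N/+ replicate 1 lay among the high Rragc+/+ libraries and the other 3 near the low ones, with a log2 change of -0.21 (SE 0.24). It ran from -0.41 without RragcS74N/+ replicate 1 to -0.10 without RragcS74N/+ replicate 4, and was -0.12 with the GC trend removed. For Slc2a6, which encodes the related transporter GLUT6, the values were 90.9, 216.2, 123.7, 73.2 and 48.1 in Rragc+/+ and 93.5, 64.1, 58.8 and 51.2 in RragcS74N/+ libraries. Rragc+/+ replicate 2 was by far the highest and Rragc+/+ replicate 5 the lowest of all. The log2 change of Slc2a6 was -0.57 (SE 0.35, adjusted p = 0.713), from -0.82 without Rragc+/+ replicate 5 (unadjusted p = 0.0177, adjusted p = 0.326, limma) to -0.28 without Rragc+/+ replicate 2, and -0.26 with the GC trend removed.

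Among the hexokinases, Hk2, the inducible form that binds mitochondria, had the highest mean count. It measured 160.0, 147.2, 154.6, 203.4 and 162.4 in Rragc+/+ and 182.3, 156.6, 201.1 and 165.1 in RragcS74N/+ libraries, so that the genotypes covered the same range, with a log2 change of 0.09 (95% interval -0.26 to 0.44). Left-out fits gave 0.03, without RragcS74N/+ replicate 3, to 0.17, without Rragc+/+ replicate 4, and removal of the GC trend 0.02. Hk3, the form found mainly in myeloid cells, measured 141.6, 120.4, 120.9, 67.5 and 120.3 in Rragc+/+ and 65.6, 100.6, 102.4 and 115.0 in RragcS74N/+ libraries. One library of each genotype, Rragc+/+ replicate 4 and RragcS74N/+ replicate 1, was low. The log2 change of -0.24 (SE 0.23) ran from -0.41 to -0.07 when one or the other of these libraries was left out, and became 0.01 when the trend on GC content was removed. Hk1, the housekeeping form, stood at 73.4 ± 23.1 (SD, n = 5) and 63.9 ± 17.2 (SD, n = 4).

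Glycolysis proper, with lactate production and export, was the group with the lowest median, -0.29 on the log2 scale over 14 genes, of which 10 were lower and 4 higher in RragcS74N/+ neutrophils. The median was -0.15 without Rragc+/+ replicate 2 and -0.16 with the GC trend removed. Pgam1, the phosphoglycerate mutase of lower glycolysis, had the smallest p of all 39 genes. It measured 1274, 2162, 1358, 1793 and 1160 in Rragc+/+ and 990.0, 1092, 1193 and 960.4 in RragcS74N/+ libraries. All RragcS74N/+ libraries were low and close together, and just 1 of them, replicate 3, lay above the lowest Rragc+/+ library, replicate 5. The means were 1550 ± 417.8 (SD, n = 5) and 1059 ± 105.7 (SD, n = 4). The log2 change was -0.52 (SE 0.19, limma, unadjusted p = 0.0192, adjusted p = 0.713), a fold of 0.70, and it ran from -0.61 without Rragc+/+ replicate 5 to -0.39 without Rragc+/+ replicate 2 and was -0.55 with the GC trend removed. Without Rragc+/+ replicate 4 the unadjusted p was 0.0514.

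Pkm, the gene of pyruvate kinase, which makes pyruvate and ATP in the last step, had the highest mean count of the glycolytic genes. The counts of Gapdh and Eno1 are uncertain, as described below, so their place in this order is not known. Pkm measured 1621, 3493, 1849, 1545 and 988.6 in Rragc+/+ and 1346, 1264, 1169 and 1004 in RragcS74N/+ libraries. Rragc+/+ replicate 2 stood far above the others, whereas Rragc+/+ replicate 5 was below every RragcS74N/+ library. The log2 change of -0.55 (SE 0.28, adjusted p = 0.713) ran from -0.75 without Rragc+/+ replicate 5 (unadjusted p = 0.00697, adjusted p = 0.326, limma) to -0.30 without Rragc+/+ replicate 2, and was -0.31 with the GC trend removed. Aldoa, the aldolase that splits the sugar bisphosphate into its trioses, measured 1249, 1978, 1218, 961.4 and 714.9 in Rragc+/+ and 928.9, 806.2, 863.1 and 747.2 in RragcS74N/+ libraries. Here, too, Rragc+/+ replicate 2 was the highest and replicate 5 the lowest of all libraries, and the log2 change was -0.47 (SE 0.24, adjusted p = 0.713). It was -0.65 without replicate 5 (unadjusted p = 0.00785, adjusted p = 0.326, limma) and -0.28 without replicate 2 (unadjusted p = 0.168, limma). With the GC trend removed it was -0.20.

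**Figure D2:**
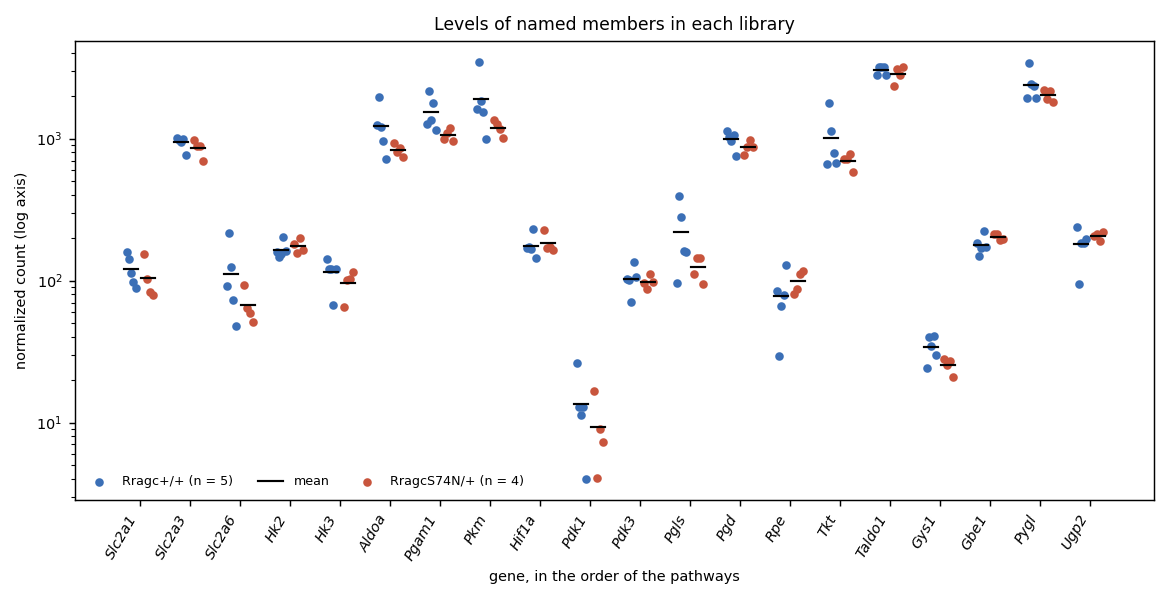
Normalized count (log axis) of the 20 genes described library by library, with Rragc+/+ libraries in blue (n = 5), RragcS74N/+ libraries in red (n = 4) and black lines at the means. The points of the genotypes overlap for every gene, and single Rragc+/+ libraries stand apart for Pkm (3493), Tkt (1780), Slc2a6 (216.2), Rpe (29.2) and Ugp2 (94.7).

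The other genes of the group lay on both sides. Gpi1, the isomerase that follows hexokinase, had a log2 change of -0.36 (SE 0.20) and Slc16a3, the lactate exporter MCT4, one of -0.41 (SE 0.35), from -0.62 without RragcS74N/+ replicate 1 to -0.17 without Rragc+/+ replicate 2. The phosphofructokinase genes Pfkl and Pfkp, which encode the committed step, had changes of -0.56 (SE 0.36) and -0.34 (SE 0.23), the former at 13.4 ± 8.25 (SD, n = 5) and 8.01 ± 1.81 (SD, n = 4) normalized counts. Ldha, the lactate dehydrogenase subunit, measured 984.1 ± 168.2 (SD, n = 5) and 832.4 ± 80.6 (SD, n = 4), a log2 change of -0.23 (SE 0.16). Pgk1, a kinase of the ATP-yielding part, was the most precise of the set, with a log2 change of -0.03 and a 95% interval from -0.34 to 0.27. Pfkfb3, which makes the sugar bisphosphate that activates phosphofructokinase, was higher by a log2 value of 0.26 (SE 0.19), Tpi1 by 0.17 (SE 0.23) and Pfkfb4 by 0.02 (SE 0.16). Gapdh and Eno1, at means of 151.3 and 67.7, are uncertain. Their transcript ends are at least 95% identical over at least 100 nucleotides to 89 and 4 other annotated genes, most of them pseudogenes. Reads could align to several of these, and the effect on the counts was not tested.

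HIF-1 binds DNA at the letters ACGTG or GCGTG, and factors such as MYC and TFEB bind at CACGTG, which contains ACGTG. In the 250 bases before any RefSeq start of a gene (GRCm38.p6), ACGTG or its reverse complement CACGT occurred in 18 of 42 matched genes, or 42.9%, against 26.7% of 5684 genes of the table and 18.5% of 27025 genes in all. A gene with several starts counted if at least 1 of its windows held the letters, and the number of starts was not matched. GCGTG or CACGC occurred in 24 of 42, or 57.1%, against 51.5% of the genes of the table, and CACGTG in 5 of 42, or 11.9%, against 10.5%. These are matches of letters and not measured sites. The 42 genes include Pfkm, Phka2, G6pc3 and Slc37a4, which were not in the table. Pfkm and G6pc3 are among the 18 and the 5, and Pfkm is among the 24. The shares are therefore not of genes of the table alone, and no difference from the genes of the table is read from them. The windows of the glycolytic genes with the highest levels are given 5′ to 3′ on the strand of the gene, with ACGTG and CACGT in capitals, for a gene with several starts at the first one whose window holds these letters. The window of Pkm overlapped an annotated exon, and its longest stretch free of exons held none of these letters, so it is left out. The counts of genes above kept exon bases and include Pkm. The window of Pgam1 is at chr19:41911621-41911870 (plus strand), that of Aldoa at chr7:126799255-126799504 (minus strand) and that of Ldha at chr7:46845554-46845803 (plus strand).
Pgam1: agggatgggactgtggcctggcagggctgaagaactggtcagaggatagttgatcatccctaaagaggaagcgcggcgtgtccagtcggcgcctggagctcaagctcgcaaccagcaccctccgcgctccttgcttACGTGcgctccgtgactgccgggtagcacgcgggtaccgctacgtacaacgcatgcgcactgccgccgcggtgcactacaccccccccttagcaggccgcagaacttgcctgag
Aldoa: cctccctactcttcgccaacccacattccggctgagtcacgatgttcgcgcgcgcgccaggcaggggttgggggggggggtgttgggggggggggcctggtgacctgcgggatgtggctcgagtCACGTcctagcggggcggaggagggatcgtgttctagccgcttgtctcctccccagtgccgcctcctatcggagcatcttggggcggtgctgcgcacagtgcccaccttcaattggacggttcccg
Ldha: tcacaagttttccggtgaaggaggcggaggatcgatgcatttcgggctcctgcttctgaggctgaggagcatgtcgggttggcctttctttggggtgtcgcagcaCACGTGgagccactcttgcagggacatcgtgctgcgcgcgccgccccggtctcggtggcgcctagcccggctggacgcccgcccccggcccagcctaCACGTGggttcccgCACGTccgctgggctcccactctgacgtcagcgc
Ldha had 3 places with ACGTG or CACGT, and Pgam1 and Aldoa 1 each. GCGTG and CACGC are not in capitals, and the window of Pgam1 holds both of these as well. A relation of such letters to the log2 changes was not tested.

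The 3 regulators lay near the median of all genes or were scarce. Hif1a measured 169.9, 171.8, 165.9, 229.9 and 144.4 in Rragc+/+ and 228.1, 169.8, 172.5 and 165.1 in RragcS74N/+ libraries. One library of each genotype was high, and the others lay between 144.4 and 172.5. Its log2 change of 0.06 (95% interval -0.32 to 0.45) ran from -0.04 without RragcS74N/+ replicate 1 to 0.16 without Rragc+/+ replicate 4 and was -0.09 with the GC trend removed. Pdk3, a kinase that inhibits the pyruvate dehydrogenase of mitochondria, measured 102.7, 101.7, 71.2, 134.2 and 105.3 in Rragc+/+ and 96.1, 87.4, 111.5 and 98.2 in RragcS74N/+ libraries, with all RragcS74N/+ values inside the Rragc+/+ range. Its log2 change of -0.04 (SE 0.19) ran from -0.17 without Rragc+/+ replicate 3 to 0.06 without Rragc+/+ replicate 4, and was -0.09 with the GC trend removed. Its relative Pdk1, a HIF-1 target in many cells, measured 26.3, 12.9, 11.3, 12.9 and 4.01 in Rragc+/+ and 16.6, 4.07, 9.04 and 7.32 in RragcS74N/+ libraries. At these counts the libraries of a genotype differed several-fold, and the interval of its log2 change, -0.45, was the widest of the set, from -1.45 to 0.56. The change was -0.78 without Rragc+/+ replicate 5, -0.15 without RragcS74N/+ replicate 2 and -0.55 with the GC trend removed.

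In the pentose phosphate pathway 5 of 7 genes were lower and the median log2 change was -0.09, but with the GC trend removed 2 of 7 were lower and the median was 0.03. The oxidative branch makes the NADPH. Pgd, its last enzyme, measured 1134, 1035, 969.1, 1068 and 757.0 in Rragc+/+ and 767.2, 871.3, 973.8 and 875.8 in RragcS74N/+ libraries. Rragc+/+ replicate 5 was the lowest library and the other Rragc+/+ libraries were high, so that the genotypes overlapped, with a log2 change of -0.18 (SE 0.16). It ran from -0.27 without Rragc+/+ replicate 5 to -0.12 without RragcS74N/+ replicate 1, and was 0.03 with the GC trend removed. Pgls, the lactonase before it, measured 96.2, 396.1, 282.1, 162.4 and 158.4 in Rragc+/+ and 110.7, 144.4, 144.6 and 95.1 in RragcS74N/+ libraries. Rragc+/+ replicates 2 and 3 were the highest of all, and replicate 1 was at the level of the lowest RragcS74N/+ library. Its log2 change of -0.67 (SE 0.33, adjusted p = 0.713) was -0.92 without Rragc+/+ replicate 1 (unadjusted p = 0.0067, adjusted p = 0.5, limma). It was -0.41 without Rragc+/+ replicate 2 (unadjusted p = 0.15, limma) and -0.23 with the GC trend removed. G6pdx, the rate-limiting first enzyme, measured 553.6 ± 125.8 (SD, n = 5) and 513.9 ± 29.5 (SD, n = 4), a log2 change of -0.08 (95% interval -0.46 to 0.30), which was 0.04 without Rragc+/+ replicate 2 and 0.07 with the GC trend removed.

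The non-oxidative branch returns pentoses to glycolysis, and it held the gene with the highest mean count of the whole set. Taldo1, the transaldolase, measured 2798, 3176, 3218, 3179 and 2821 in Rragc+/+ and 2362, 3100, 2812 and 3194 in RragcS74N/+ libraries. Apart from the low RragcS74N/+ replicate 1 the libraries of both genotypes lay in the same range. The log2 change was -0.09 (95% interval -0.42 to 0.24), from -0.15 without RragcS74N/+ replicate 4 to near 0 without RragcS74N/+ replicate 1, and 0.14 with the GC trend removed. Tkt, the transketolase, measured 667.8, 1780, 1132, 799.0 and 674.8 in Rragc+/+ and 716.8, 716.7, 776.5 and 582.1 in RragcS74N/+ libraries. Rragc+/+ replicates 2 and 3 were high and the other 3 lay close to the RragcS74N/+ libraries, and the log2 change of -0.43 (SE 0.26) ran from -0.56 without replicate 1 to -0.20 without replicate 2 and was -0.48 with the GC trend removed. Rpe, the epimerase, ran the other way, with 84.96, 29.2, 66.6, 78.8 and 129.3 in Rragc+/+ and 80.9, 87.4, 111.5 and 116.0 in RragcS74N/+ libraries. Rragc+/+ replicate 2 was the lowest library for this gene, and the log2 change of 0.47 (SE 0.33) was 0.17 without it (unadjusted p = 0.463, limma). It was 0.69 without Rragc+/+ replicate 5 (unadjusted p = 0.0354, adjusted p = 0.344, limma) and 0.28 with the GC trend removed. Rpia, the isomerase, had a log2 change of 0.01 (SE 0.27), from -0.17 to 0.18 with one library left out.

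For glycogen and its precursors 5 of 9 genes were lower and the median log2 change was -0.10, which became 0.04 without Rragc+/+ replicate 2 and 0.05 with the GC trend removed. The breakdown gene Pygl had far higher counts than the synthase gene Gys1. Pygl, the phosphorylase that releases glucose units, measured 1923, 3390, 2425, 2352 and 1929 in Rragc+/+ and 2201, 1916, 2179 and 1825 in RragcS74N/+ libraries. Rragc+/+ replicate 2 stood above the rest, and the others overlapped. Its log2 change of -0.22 (SE 0.19) was -0.08 without that library, -0.29 without Rragc+/+ replicate 1 and -0.30 with the GC trend removed. Gys1, the glycogen synthase, measured 24.4, 39.7, 34.7, 41.0 and 30.1 in Rragc+/+ and 27.9, 25.4, 27.1 and 20.9 in RragcS74N/+ libraries. Of the Rragc+/+ values 4 were above every RragcS74N/+ value, and Rragc+/+ replicate 1 was lower than 3 of them, with a log2 change of -0.39 (SE 0.21, adjusted p = 0.713). It was -0.50 without Rragc+/+ replicate 1 (unadjusted p = 0.0322, limma), -0.31 without RragcS74N/+ replicate 4 and -0.18 with the GC trend removed. In the limma fit without Rragc+/+ replicate 1 the smallest adjusted p of the set was 0.5.

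Gbe1, the branching enzyme, was in the opposite direction, at 185.1, 149.6, 168.7, 221.9 and 171.4 in Rragc+/+ and 213.5, 211.5, 194.3 and 197.5 in RragcS74N/+ libraries. All RragcS74N/+ values were above 4 of the Rragc+/+ values and below the fifth, and the log2 change was 0.20 (SE 0.16, adjusted p = 0.741), from 0.14 to 0.28 with one library left out and 0.05 with the GC trend removed. Ugp2, which makes the activated glucose for glycogen synthesis, measured 238.4, 94.7, 184.6, 184.9 and 196.5 in Rragc+/+ and 206.2, 213.5, 190.6 and 219.5 in RragcS74N/+ libraries. Rragc+/+ replicate 2 was low, and the log2 change of 0.27 (SE 0.23) was 0.05 without it, 0.38 without Rragc+/+ replicate 1 and 0.16 with the GC trend removed. Of the remaining genes, Gyg, the primer protein of glycogen, had a log2 change of -0.14 (SE 0.22), and Phkb and Phkg2, subunits of the kinase that activates phosphorylase, 0.12 (SE 0.32) and -0.10 (SE 0.20). Gyg stood at 0.04 without Rragc+/+ replicate 2 and Phkg2 at 0.18 with the GC trend removed. The symbols Pgm1 and Pgm2 have been exchanged between phosphoglucomutase genes in mouse annotation releases, so the rows of these symbols, at -0.11 (SE 0.26) and 0.23 (SE 0.23), are given by symbol alone. No GC content was matched to them, so removal of the GC trend left their values unchanged.

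Within families the same isoenzyme or transporter had the largest share of counts in both genotypes. Of the counts of the 3 listed glucose transporters, Slc2a3 made up 80.7 ± 4.97% (SD, n = 5, Rragc+/+) and 83.6 ± 2.71% (SD, n = 4, RragcS74N/+). Hk2 made up 47.0 ± 6.49% and 52.6 ± 4.26% of hexokinase counts, and Hk3 32.4 ± 7.95% and 28.6 ± 6.09%. The share of Hk2 ran from 40.6 to 58.9% over all 9 libraries. Pfkp made up 81.5 ± 4.22% and 84.1 ± 4.2% of the counts of the 2 listed phosphofructokinases. Pfkfb4 held 81.2 ± 2.16% and 78.3 ± 2.91% against Pfkfb3, and Pdk3 88.5 ± 6.18% and 91.6 ± 4.41% against Pdk1. For each of these the library ranges overlapped, and no test was made on shares.

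**Figure D3:**
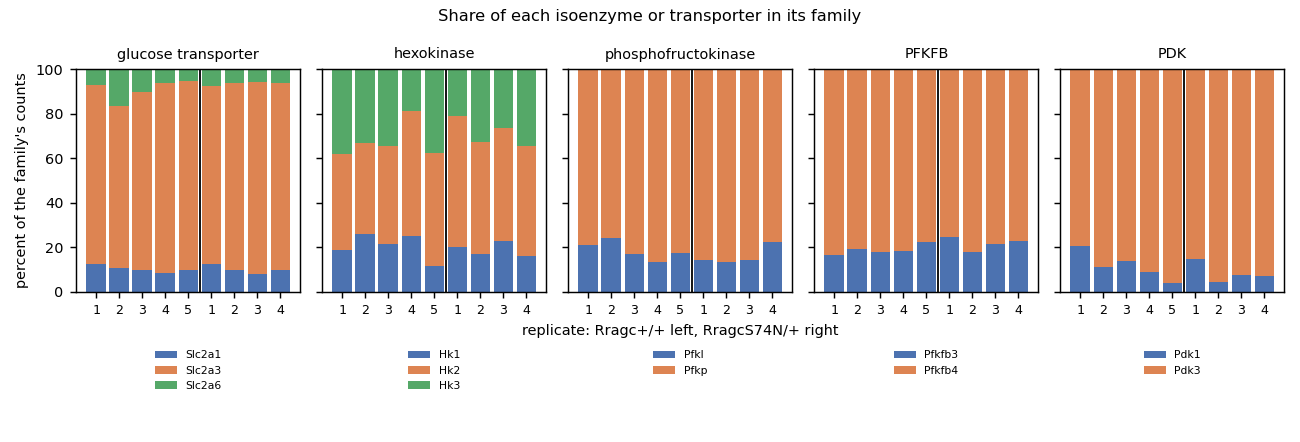
Share of each listed gene in the counts of its family (vertical axis, percent) in each library, with Rragc+/+ replicates 1 to 5 to the left and RragcS74N/+ replicates 1 to 4 to the right of the black line. Slc2a3 (73.1 to 86.2%), Pfkp (75.8 to 86.7%), Pfkfb4 (75.4 to 83.4%) and Pdk3 (79.6 to 96.3%) are the larger share in all 9 libraries.

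Across libraries, the Rragc+/+ libraries covered the wider range of these genes. Together they made up 1.43 ± 0.259% (SD, n = 5) of listed counts in Rragc+/+, from 1.07 to 1.79%, and 1.19 ± 0.148% (SD, n = 4) in RragcS74N/+, from 1.00 to 1.31%. Rragc+/+ replicate 2 was the highest library for 18 of the 39 genes and the lowest for 4, and its median deviation from the gene means was 0.36 on the log2 scale. Rragc+/+ replicate 5 was the lowest library for 11 genes and RragcS74N/+ replicate 4 for another 11, with median deviations of -0.17 and -0.13. Rragc+/+ replicate 2 deviated upward in glycolysis by a median of 0.54, in the pentose phosphate genes by 0.51 and in the glycogen genes by 0.42. Rpe, Ugp2 and Gbe1, however, were at their lowest there. Over 6554 genes the deviations of this library rose with the GC content of transcript ends (Spearman correlation 0.385, the highest of any library). With that trend removed, its median deviation over the set was 0.23. The median deviation of all genes tested was between -0.01 and 0.02 in every library. Scaling by size factors holds it near 0, so no contrast with the 39 genes is read from it.

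**Figure D4:**
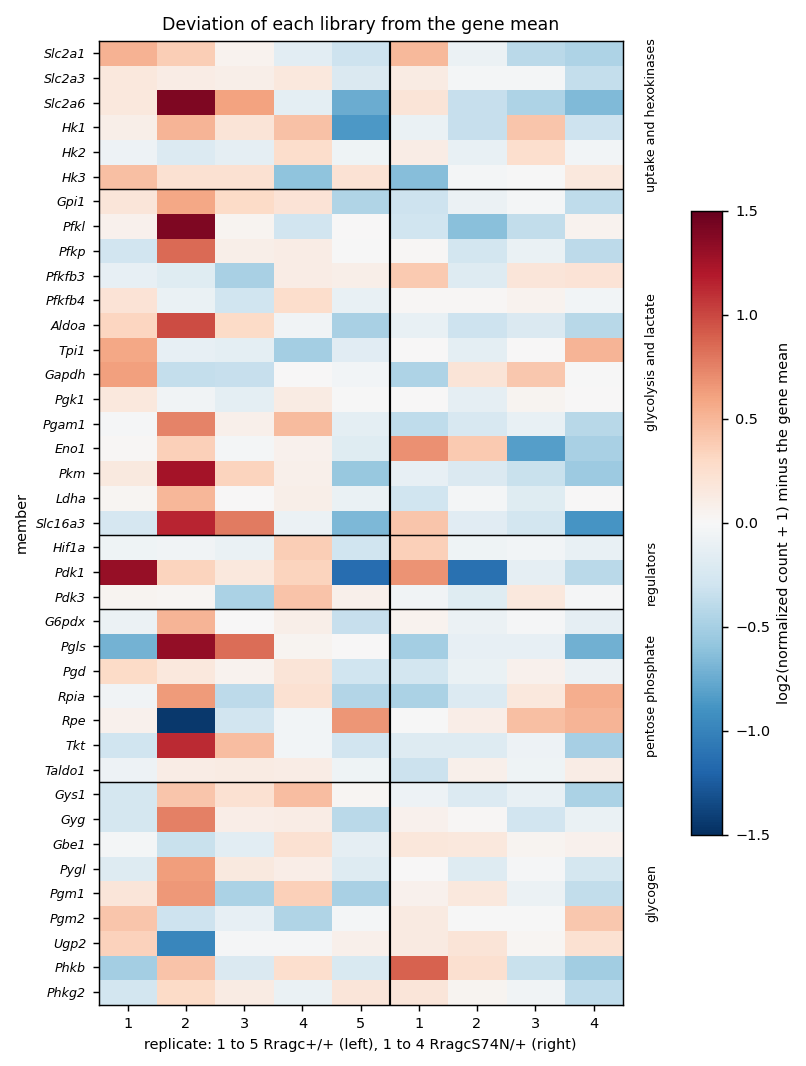
Deviation of each library (columns) from the mean of each of the 39 genes (rows, by role) on the log2(normalized count + 1) scale, red above and blue below the mean, with Rragc+/+ left and RragcS74N/+ right of the line. The second column, Rragc+/+ replicate 2, is mostly red (median 0.36), and the fifth column, Rragc+/+ replicate 5 (median -0.17), and the last, RragcS74N/+ replicate 4 (median -0.13), are mostly blue.

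Marker transcripts of other cells, and of neutrophil granules and the cell cycle, also varied. The summed erythroid markers (7 listed genes) ran from 1091 to 5609 normalized counts in Rragc+/+ and from 379.2 to 2158 in RragcS74N/+ libraries, and 5 of 6 tested had an unadjusted p below 0.05 (limma, adjusted p = 0.713 for each), lower in RragcS74N/+ as were 3.81% of all genes at this p. The remaining tested marker, Car2, was higher, with a log2 change of 0.58 (SE 0.76). Rragc+/+ replicate 5, low for many glucose genes, had the highest erythroid sum, 5609. The summed eosinophil and basophil markers (6 of 8 listed, Mcpt8 and Cpa3 not listed) ran from 126.2 to 452.2 and from 126.0 to 632.3. Rragc+/+ replicate 5 and RragcS74N/+ replicate 4 had the highest of these sums in their genotypes. Prg2 had an unadjusted p of 0.0394 (limma, adjusted p = 0.713), higher in RragcS74N/+ as were 2.01% of all genes at this p. Epx, Ear1, Ear2 and Ear6 were also higher, and Siglecf was lower, at -0.14 (SE 0.23). Secondary granule markers summed to between 22770 and 31150 in Rragc+/+ and between 18760 and 32720 in RragcS74N/+, and the 7 cell cycle markers to between 359.9 and 781.0 and between 386.6 and 714.0. Of 6 monocyte markers 2 were listed (Csf1r and Ly6c2), summing to between 2202 and 3420 and between 2211 and 3990, nearly all of it Ly6c2. The mean of Ly6c2 over all libraries, 2676, was near that of the neutrophil marker Ly6g, 2710, so this sum is no measure of monocytes. Csf1r alone measured 102.7, 338.9, 189.3, 168.0 and 85.2 in Rragc+/+ and 133.3, 102.7, 99.4 and 71.1 in RragcS74N/+ libraries, a log2 change of -0.66 (SE 0.34, limma, adjusted p = 0.713), and like many glucose genes it was highest in Rragc+/+ replicate 2. Of 6 B cell markers 1 was listed, Ighm, at 87.6 to 140.3 and 83.6 to 122.8. The part of other cells in the values of the glucose genes was not tested.

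The base composition of transcript ends moved with the result. The 37 genes with a matched transcript had a median GC content of 47.6% over the last 500 nucleotides, against 43.0% over 6554 tested genes. Over those 6554 genes the median log2 change went from 0.18 below 35% GC to -0.31 at 55% GC and above, with a Spearman correlation of -0.464 across genes, which share the same 9 libraries and are not independent replicates. The correlation was -0.401 over the 37. Rpe, the gene with the largest positive change, had the lowest GC content, 30.0%, and Pgls, with the largest negative change, had the highest, 61.6%. At 40 to 45% GC the median log2 change was 0.06 over all genes and -0.13 over the 11 genes of the set. Of these 11, Pgam1, at 43.2%, Tkt, at 42.6%, and Gpi1, at 43.0%, had the largest falls. Their changes were -0.55, -0.48 and -0.40 with the trend removed, and -0.39, -0.20 and -0.26 without Rragc+/+ replicate 2. Hk2, Pfkfb3 and Phkb, in the same range, were higher in RragcS74N/+, at 0.09, 0.26 and 0.12. With the trend removed, 22 of the 39 genes were lower, or 56.4%, against 49.2% of all genes, with a median of -0.09 against 0.01. Genes without a matched transcript, Pgm1 and Pgm2 among them, kept their values in these counts. What produced the trend was not tested.

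**Figure D5:**
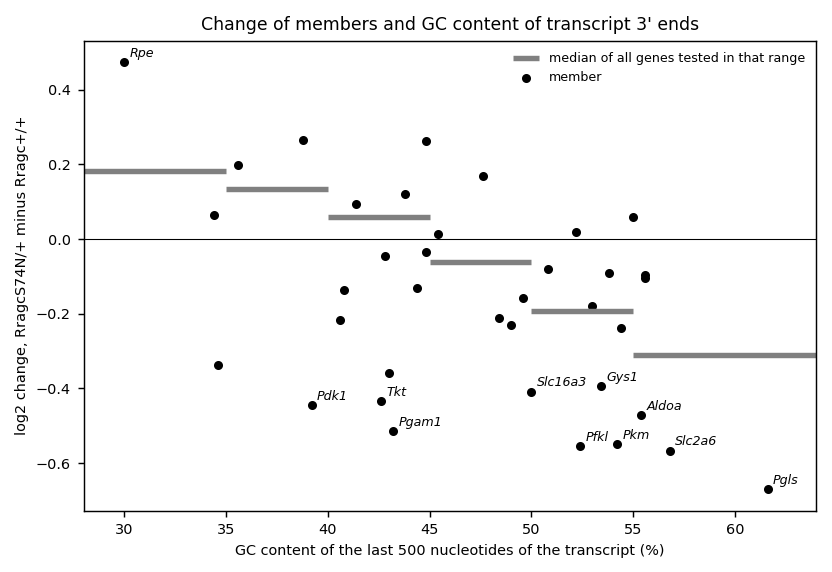
Log2 change (vertical axis, RragcS74N/+ minus Rragc+/+) against the GC content of the last 500 nucleotides of the transcript (horizontal axis, percent) for the 37 genes with a matched transcript (points); grey bars are the medians of all genes tested in each range of GC content. The bars step down from 0.18 to -0.31. Pgam1, Tkt and Pdk1 lie well below the bars of their ranges, and Rpe lies above its bar.

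Genes that act beside these pathways were taken from a second list of 123 genes, which covers further enzymes, pyruvate entry into mitochondria, glycogen regulators, the oxygen-sensing factors and other HIF-1 targets. Of the 54 listed, 51 were tested, of which 22 were lower and 29 higher, with a median log2 change of 0.02, and 0 had an adjusted p below 0.05. At an unadjusted p below 0.05 there were 2, or 3.92%, against 5.81% of all genes. Bnip3, a HIF-1 target that directs mitochondria to autophagy, measured 115.3 ± 26.2 (SD, n = 5), from 96.3 to 161.3, in Rragc+/+ and 81.3 ± 8.83 (SD, n = 4), from 74.2 to 92.8, in RragcS74N/+ libraries. It was the 1 gene of these 51 without overlap between genotypes, or 1.96%, against 1.69% of all genes, with a log2 change of -0.48 (SE 0.19, limma, unadjusted p = 0.0223, adjusted p = 0.713), and -0.61 with the GC trend removed. Phkg1, another catalytic subunit of phosphorylase kinase, measured 9.56 ± 5.50 (SD, n = 5) and 15.4 ± 2.56 (SD, n = 4), a log2 change of 0.76 (SE 0.35, limma, unadjusted p = 0.0489, adjusted p = 0.713) with overlapping libraries.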

How the data were processed

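Neutrophils (CD45+, CD11b+, Ly6G+) were sorted from the bone marrow of 9 mice, and 3′-end libraries with molecular identifiers were made by oligo-dT priming. Per the study's methods and the submitters' processing notes, alignment by the authors used TopHat2 (version 2.0.10, several alignments per read allowed) and GRCm39, counting per gene and strand used HTSeq (version 0.6.1), and normalization used DESeq2. The deposited values are a signal, namely read counts of genes over the size factor of their library. The use of the molecular identifiers to collapse reads, and the filter behind the list of genes, are not given in the sources used here. Reads were present in at least 7 libraries for every listed gene and numbered at least 8 in one, so scarce transcripts are under-represented.

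Libraries were grouped by GEO's genotype labels, and the replicate numbers follow accession order and pair no libraries. In each library 100% of values came out as whole numbers of reads (within 0.01 reads), and these numbers served as recovered reads, 1214295 to 1973957 per library. Those totals cover listed genes alone. Among 16 pairs of libraries of one genotype the lowest chi-square per degree of freedom was 5.47, so none was treated as a duplicate. The sources do not tie libraries to animals beyond the genotype and age, so p-values measure the spread between these libraries. The study's text describes more RragcS74N/+ mice than the libraries analysed here.

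Testing was done on log2(value + 1), for genes whose mean reached 10, with limma (version 3.58.1, R 4.3.3, trended prior, genotype as the only term) and Benjamini-Hochberg adjustment at 0.05. This scale understates changes of low genes. Intervals are 95% intervals from that fit. Alternatives were pseudocounts of 0.5 and 4, no filter or a mean of at least 50, 2 other scalings, an untrended prior, array quality weights, edgeR (version 4.0.16), DESeq2 (version 1.42.0, no adjusted p for 8 genes), removal of the trend of each library with 3′ GC content or transcript length (loess, span 0.5) and removal of each library in turn. GC content and near-identical copies (blastn) came from GENCODE transcripts of GRCm38, matched by symbol for 7065 genes. Promoter windows came from RefSeq on GRCm38.p6, where 42 of 43 genes matched and Slc2a3 did not. Neither assembly is the authors'. The genes described library by library are, in each role, the 3 with the highest mean and the 3 with the smallest limma p. The scripts were tested on simulated counts. The members, the lists and the tests were chosen with earlier results of these data known.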

Additional observations from a re-analysis of the deposited data

Results flagged for a closer look

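In 5 of 84 groups examined, 1 library lay apart from the others by Dixon's criterion, which compares the gap to the nearest library with the range of the group. Chance flags about 1 in 20 groups, or 4.2 of 84. Slc2a3 was low in Rragc+/+ replicate 5 (773.0 normalized counts, gap 0.793 of the range), and Hk3 was low in Rragc+/+ replicate 4 (67.5, gap 0.779). Pfkl was high in Rragc+/+ replicate 2 (28.04, gap 0.791), while Ugp2 was low in the same library (94.7, gap 0.723). Hif1a was high in RragcS74N/+ replicate 1 (228.1, gap 0.865).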

How the results depend on the processing

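No paired analysis was possible because no label numbers the replicates. Under all 21 alternatives 0 of the 39 genes had an adjusted p below 0.05, with a smallest value of 0.326 without Rragc+/+ replicate 5. The number with an unadjusted p below 0.05, 1 in the fit as reported, was 2 with columns scaled to equal totals (background 5.26% of all genes), 6 with array quality weights (background 11.5%), 4 with edgeR (6.89%) and 4 with DESeq2 (6.7%). It ranged from 0 (without Rragc+/+ replicate 4, background 4.83%) to 6 (without Rragc+/+ replicate 5, background 13.7%) when one library was left out, and was 3 without Rragc+/+ replicate 1 (background 9.64%). Over all genes tested this number, 388, was 191 where the mean had to reach 50 and 769 with array quality weights, and ranged from 201 (without Rragc+/+ replicate 2) to 914 (without Rragc+/+ replicate 5) with one library left out. The fall to 191 goes with fewer genes tested, and the cause of the other shifts was not tested.

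The median log2 change of the regulators turned to 0.00998 where the mean had to reach 50 and to 0.00315 with the length trend removed, and ranged from -0.169 to 0.0575 with one library left out, being above 0 without Rragc+/+ replicate 4 or RragcS74N/+ replicate 2. That of the pentose phosphate genes turned to 0.029 with the GC trend removed. That of the glycogen genes turned to 0.0549 with the GC trend removed, 0.0301 where the mean had to reach 50 and 0.00657 with array quality weights, and ranged from -0.15 to 0.0434 with one library left out, being above 0 without Rragc+/+ replicate 2 or RragcS74N/+ replicate 4. Of the 39 genes, 7 changed sign with the GC trend removed: Hk3 (0.00858), Eno1 (0.174), Hif1a (-0.0895), G6pdx (0.0689), Pgd (0.029), Taldo1 (0.138) and Phkg2 (0.183). Array quality weights turned Hif1a (-0.0471) and Pgm1, edgeR Pfkfb4 and Eno1, DESeq2 Eno1, and removal of the length trend Pdk3 (0.00315) and Pgk1. At least 1 of the fits that left out one library turned 12 genes, namely Pfkfb4, Gapdh, Pgk1, Eno1, Hif1a, Pdk3, G6pdx, Rpia, Gyg, Pgm1, Phkb and Phkg2, of which 5 turned without Rragc+/+ replicate 2. With one library left out, Hif1a ranged from -0.0433 to 0.164 and Pdk3 from -0.169 to 0.0575. Why these signs changed was not tested.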
